A study of Danio rerio with 4 samples.

Results

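Rab proteins are small GTPases that mark the membranes of the cell: each Rab, when bound to GTP, sits on a particular compartment and recruits the motors, tethers and sorting proteins that move, dock and fuse vesicles there. Exchange factors load them with GTP, GTPase-activating proteins switch them off, and GDI and escort proteins carry the inactive, prenylated form through the cytosol. In blood and vessels they are known for the release of platelet and mast cell granules, for phagosome maturation and for the recycling of receptors and junction proteins.

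The family was taken by symbol, as every row of the count table named rab, a number and an optional short suffix. This gave 87 of 31947 rows. The suffix also admits genes that are not GTPases, so the set holds 75 Rab GTPases with 41 Rab numbers and 12 genes of Rab-interacting proteins (rab11fip, rab3gap, rab3ip and rab3il1). Levels came from RNA sequencing of cells that were sorted from zebrafish tails at 52 hours post fertilisation, where the caudal hematopoietic tissue (CHT) houses blood stem cells. One group, CHT-EC, was gated on mCherry driven by the kdrl promoter, a reporter of endothelium, and the other, CHT-HSPC, on GFP driven by the CD41 (itga2b) promoter, a reporter of stem and progenitor cells and of thrombocytes. There were 2 libraries per group, with totals of 27514202 to 32268535 counts. Neither an allele, nor the number of embryos pooled, nor the fate of cells with both colours was given in the sources used here, and nothing says that the libraries of a group were separate sorts, so that the p-values cover no more than the spread between these samples, and that spread may be technical.

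Markers of several cell types besides the labelled ones were counted in both gates. The 14 endothelial marker rows, including a second row of the symbol pecam1, were summed in CPM (counts per 1000000 of the library, scaled by TMM factors). The sum was 311 and 142 CPM in CHT-EC, against 62.7 and 41.2 CPM in CHT-HSPC. By the fit all 14 lay on the CHT-EC side. Yet CHT-EC replicate 2 was below both CHT-HSPC libraries for cdh5 (1.05 CPM, against 3.5 and 1.24 CPM) and tie1 (4.62 CPM, against 4.99 and 8.61 CPM). The second pecam1 row overlapped too, and the rest did not. Of the 14, 1 passed in edgeR (8 at an unadjusted p under 0.05), 6 in DESeq2, and 0 without CHT-EC replicate 1. The 9 erythroid markers, led by hemoglobin genes, summed to 19236 and 34733 CPM in CHT-EC, against 2206 and 1398 CPM in CHT-HSPC, and 7 were higher in CHT-EC. Their part in the Rab values was not tested. The sum of 9 neutrophil markers was 22058 and 17116 CPM in CHT-EC, against 1021 and 1102 CPM in CHT-HSPC. Of 9 stem and progenitor markers tested, 3 were higher in CHT-HSPC (0 with CHT-EC replicate 1 left out, and 1 with CHT-EC replicate 2 left out). Another 3 of these 9, gata2a, gata2b and gfi1aa, lay on the CHT-EC side and did not pass. The 10 thrombocyte marker rows summed to 950 and 391 CPM in CHT-EC, against 2165 and 1755 CPM in CHT-HSPC. Most of this came from thbs1b alone, at 875 and 288 CPM in CHT-EC, against 1738 and 1285 CPM in CHT-HSPC. Muscle markers stood apart in CHT-HSPC replicate 1, with 2131 and 4632 CPM in CHT-EC, against 10873 and 1370 CPM in CHT-HSPC. A difference between the groups is therefore one between gates, and in such bulk libraries fewer cells of a type and less RNA per cell cannot be told apart.

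Taken as a family, Rab transcripts leaned toward CHT-EC, but few single members passed the test. The 87 rows summed to 3082 and 2666 CPM in CHT-EC, against 2031 and 2039 CPM in CHT-HSPC. Of 78 members tested, 2 were higher in CHT-EC, rab11ba and rab32a, which is 2.56% against a background of 3.78% of all 19016 genes tested. RAB27B was the 1 member higher in CHT-HSPC, or 1.28% against a background of 0.752% (quasi-likelihood F-test of edgeR with p adjusted over all genes by Benjamini-Hochberg, threshold 0.05, in all that follows unless another tool is named). Both shares are close to the background, so the number of calls is not a result about the family.

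The lean of the family was spread over many members, most of which did not pass the test. The median log2 ratio (log2 of the fitted fold change, CHT-EC over CHT-HSPC, so that positive values are higher in CHT-EC) was 0.61 over the tested members and 0.02 over all genes, and 52 of 78 members lay on the CHT-EC side (66.7%, against 50.8% of all genes). In 43 members (55.1%) both CHT-EC libraries were above both CHT-HSPC libraries, against 30.6% of all genes, and in 7 (8.97%) both CHT-HSPC libraries were above, against 27.9%. The groups of the other 28 overlapped. An unadjusted p under 0.05 was found for 21 members higher in CHT-EC (26.9%, background 14.6%) and for 2 higher in CHT-HSPC (2.56%, background 9.23%). These 2 were RAB27B and the row listed as rab43, which a second name table calls ISY1. Without CHT-EC replicate 1 the median was 0.40 over members and -0.05 over all genes.

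The calls depend on the choice of test and on single libraries, as given for each gene below. DESeq2 placed 10 of 80 members higher in CHT-EC, against a background of 10.9%, and 1 higher in CHT-HSPC, against 3.91%. By limma-voom 4 of 78 passed toward CHT-EC, against a background of 3.71%, and 0 toward CHT-HSPC, against 1.23%. Without CHT-EC replicate 1 edgeR called 0 of 81 members toward CHT-EC, against a background of 0.546%, and 0 toward CHT-HSPC, against 0.0492%. At an unadjusted p under 0.05 there were 9 members on the CHT-EC side and 1 on the CHT-HSPC side. The share of all genes at that unadjusted p without this library is not given here. The unadjusted counts are therefore not a result about the family.

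**Figure D1:**
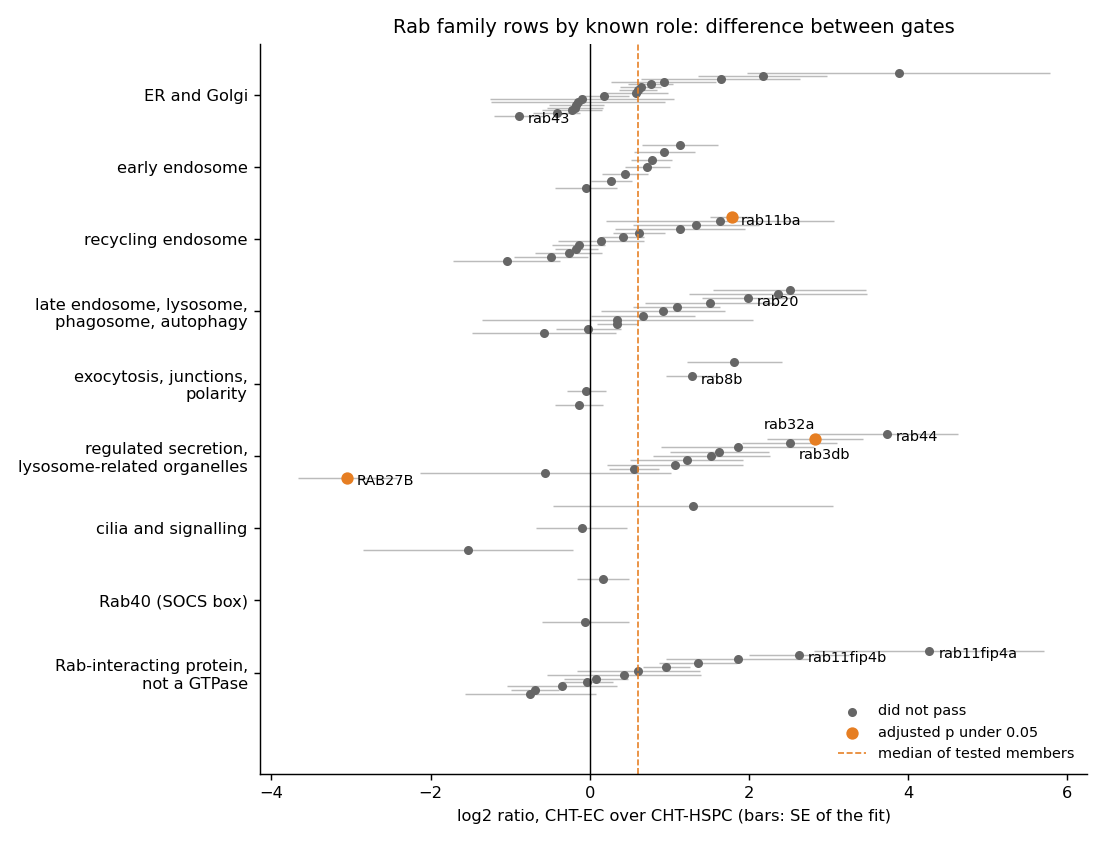
Log2 ratio of each of the 78 tested members (x axis, CHT-EC over CHT-HSPC, with the SE of the fit), grouped by known role (y axis). Orange points are the 3 members past the threshold, rab11ba and rab32a on the CHT-EC side and RAB27B on the CHT-HSPC side, and the dashed line is the median of 0.61.

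Recycling endosomes return receptors and membrane to the cell surface. Among the 12 tested Rabs of this compartment, 1 passed the test, toward CHT-EC (8.33%, background 3.78%). A single call is not a result about the compartment, whose median log2 ratio was 0.28. The level of rab11ba (ENSDARG00000041878), a copy of Rab11b, was 167 and 186 CPM in CHT-EC, against 46.3 and 56.5 CPM in CHT-HSPC. The CHT-EC mean was 177 ± 13.0 CPM, and the CHT-HSPC mean was 51.4 ± 7.22 CPM (SD, n = 2 each). The groups were far apart and the libraries within each close together, giving a log2 ratio of 1.78 (SE 0.27, adjusted p = 0.0199), or 3.43-fold. Leaving out CHT-EC replicate 1 ended the call (adjusted p = 0.0800), and leaving out CHT-EC replicate 2 did so narrowly (0.0505), with fold changes of 1.85 and 1.72 on the log2 scale. Such fits leave a lone library, which is assumed to vary like the libraries of the other group.

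Other genes of the Rab11 subfamily did not pass. The level of rab11a (ENSDARG00000041450), the ubiquitous Rab11, was 203 and 163 CPM in CHT-EC, against 151 and 124 CPM in CHT-HSPC (log2 ratio 0.42, SE 0.26, adjusted p = 0.385). The second Rab11b copy, rab11bb, had few counts, at 5.02 and 2.14 CPM in CHT-EC, against 2.06 and 1.21 CPM in CHT-HSPC. The copy rab11ba thus gave 97.1% and 98.9% of the counts of the pair in CHT-EC, against shares of 95.7% and 97.9% in CHT-HSPC. The Rab11-like gene rab11al stood the other way, at 2.10 and 1.87 CPM in CHT-EC, against 4.21 and 3.99 CPM in CHT-HSPC (log2 ratio -1.05, SE 0.67, adjusted p = 0.391).

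Of the remaining recycling Rabs, the fast-recycling gene rab4a (ENSDARG00000019144) was at 7.95 and 6.52 CPM in CHT-EC, against 8.73 and 11.6 CPM in CHT-HSPC (adjusted p = 0.569). The Golgi-to-endosome gene rab14 (ENSDARG00000074246) was at 94.9 and 72.0 CPM in CHT-EC, against 97.7 and 90.4 CPM in CHT-HSPC (adjusted p = 0.751), so its groups overlapped. RAB35 (ENSDARG00000102078), also a recycling Rab, overlapped as well, at 13.8 and 9.17 CPM in CHT-EC, against 12.9 and 14.7 CPM in CHT-HSPC. The other copies or relatives, rab4b, rab14l and rab35b, had log2 ratios of 0.14, -0.14 and 0.62, and rab15, a Rab of endocytic recycling, had 1.33 (adjusted p = 0.353). The epithelial Rab25 genes were near the limit of detection, with 8 and 21 counts of rab25a and 15 and 35 of rab25b in CHT-EC, against 0 and 4 of rab25a and 8 and 10 of rab25b in CHT-HSPC. Epidermal markers, 11 genes in which krt1-19d had no count in any library, summed to 3347 and 1793 CPM in CHT-EC. In CHT-HSPC the sum was 1341 and 580 CPM. Of these sums krt4 alone gave 1928 and 1048 CPM in CHT-EC, against 558 and 160 CPM in CHT-HSPC. By the fit 8 of 10 tested lay on the CHT-EC side, while cldni (log2 ratio -0.21) and tp63 (-0.48) lay on the other. None passed in edgeR, and 3 passed toward CHT-EC in DESeq2 and in limma-voom (backgrounds 10.9% and 3.71%). The part of these cells in the Rab25 values was not tested.

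Regulated secretion and lysosome-related organelles (platelet dense granules, mast cell granules, melanosomes) gave the widest range of differences, from -3.05 to 3.73 on the log2 scale. Of 16 such Rabs listed, 11 were tested, and the median was 1.53. There was 1 call in each direction (9.09% each, background 3.78% toward CHT-EC and 0.752% toward CHT-HSPC). Single calls are not a result about this group of Rabs. The group summed to 168 and 138 CPM in CHT-EC, against 52.0 and 73.2 CPM in CHT-HSPC.

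RAB27B (ENSDARG00000087762) encodes the Rab that, in mice, drives the release of platelet dense granules together with Rab27a. It had 45 and 25 counts in CHT-EC, against 320 and 353 counts in CHT-HSPC. The scaled level was 1.69 and 0.850 CPM in CHT-EC, against 10.8 and 10.2 CPM in CHT-HSPC, with a CHT-EC mean of 1.27 ± 0.592 CPM and a CHT-HSPC mean of 10.5 ± 0.410 CPM (SD). Both CHT-HSPC libraries lay far above both CHT-EC libraries (log2 ratio -3.05, SE 0.62, adjusted p = 0.0437). Of 9 thrombocyte markers tested, 4 were also higher in CHT-HSPC. None was higher in CHT-EC (0 at an unadjusted p under 0.05, and 0 by DESeq2 and limma-voom). The tested selp row (log2 ratio 0.79) and f2rl1.2 (0.22) lay on the CHT-EC side. Without CHT-EC replicate 1 the 4 became 1. The list includes itga2b, on whose promoter the gate rests, and the 2 rows of the symbol selp include 1 with no count in CHT-HSPC. The part of thrombocytes in the RAB27B value was not tested. The call ended when any single library was omitted, at adjusted p values between 0.0552 and 0.135 and log2 ratios of -3.62 to -2.62.

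Its relative Rab27a lay on the CHT-EC side, and neither of its identifiers passed. The gene rab27a (ENSDARG00000103935) was at 49.0 and 43.6 CPM in CHT-EC, against 26.1 and 36.8 CPM in CHT-HSPC (log2 ratio 0.56, SE 0.32, adjusted p = 0.333). A second identifier of the same symbol, RAB27A (ENSDARG00000105275), was at 3.26 and 2.41 CPM in CHT-EC, against 0.876 and 1.82 CPM in CHT-HSPC (adjusted p = 0.493).

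The gene rab32a (ENSDARG00000029036) encodes a copy of Rab32, which sorts enzymes to melanosomes and other lysosome-related organelles and acts on bacterial vacuoles in macrophages. Its level was 50.7 and 19.7 CPM in CHT-EC, against 3.20 and 6.68 CPM in CHT-HSPC, with a CHT-EC mean of 35.2 ± 21.9 CPM and a CHT-HSPC mean of 4.94 ± 2.46 CPM (SD). Both CHT-EC libraries were above both CHT-HSPC libraries, although CHT-EC replicate 1 was far above replicate 2 (log2 ratio 2.83, SE 0.60, adjusted p = 0.0496). The call ended without CHT-EC replicate 1, where the fold change was 1.99 on the log2 scale (adjusted p = 0.277), and without CHT-HSPC replicate 1 (2.40, adjusted p = 0.0928). The other copy, rab32b, had 10 and 0 counts in CHT-EC, against 0 and 0 counts in CHT-HSPC. Pigment cell markers, 12 genes none of which was at 0 in all libraries, summed to 85.7 and 30.0 CPM in CHT-EC, against 185 and 71.8 CPM in CHT-HSPC. The gene gch2 gave 159 CPM of the sum in CHT-HSPC replicate 1, and 6 of the 12 lay on the CHT-EC side. Macrophage markers, of which 9 of 19 tested were higher in CHT-EC (4 of 17 without CHT-EC replicate 1), summed over 23 rows to 713 and 377 CPM in CHT-EC, against 23.4 and 23.7 CPM in CHT-HSPC, where c1qa, c1qb and c1qc had no count. The mfap4 symbol accounts for 14 of these rows, 3 of them with no count in CHT-HSPC. Notochord markers (7 genes, noto at 0 throughout) summed to 5609 and 1395 CPM in CHT-EC, against 26.0 and 31.6 CPM in CHT-HSPC. The part of these cells in the result was not tested.

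A further pair of secretory Rabs missed the threshold narrowly. The level of rab44 (ENSDARG00000028389), a large atypical Rab with EF-hand domains that is known from mouse mast cells and osteoclasts, was 29.0 and 26.1 CPM in CHT-EC, against 0.438 and 3.67 CPM in CHT-HSPC. Its CHT-EC libraries were alike, while its CHT-HSPC libraries, with 13 and 127 counts, differed widely (log2 ratio 3.73, SE 0.89, adjusted p = 0.0672). Over 11 alternatives it passed in 7, with an adjusted p of 5.22e-10 to 0.236, and without CHT-HSPC replicate 1 the fold change was 2.91 on the log2 scale (adjusted p = 0.0299). Without CHT-HSPC replicate 2 it was 5.99 (adjusted p = 0.00647).

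Rab3 proteins dock secretory granules and synaptic vesicles. The level of rab3db (ENSDARG00000101534), a copy of the Rab3d of exocrine and mast cell granules, was 12.8 and 15.4 CPM in CHT-EC, against 1.45 and 3.50 CPM in CHT-HSPC (log2 ratio 2.51, SE 0.59, adjusted p = 0.0648). It passed in 6 of 11 alternatives, with an adjusted p of 0.000916 to 0.228. The other copy, rab3da, was at 6.26 and 8.33 CPM in CHT-EC, against 1.69 and 3.04 CPM in CHT-HSPC (log2 ratio 1.62, SE 0.62, adjusted p = 0.175). For both copies the groups did not overlap. Neutrophils carry secretory granules, and 8 of the 9 neutrophil markers were higher in CHT-EC, with the sums given above and none at 0 in a group. Their part in the rab44 and rab3db values was not tested.

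The neuronal Rab3 genes had low levels. The level of rab3c (ENSDARG00000014462) was 4.42 and 6.93 CPM in CHT-EC, against 2.73 and 0.405 CPM in CHT-HSPC (log2 ratio 1.86, SE 0.96, adjusted p = 0.291), and rab3aa and rab3ab, copies of the synaptic Rab3a, had log2 ratios of 1.22 and 1.53 (adjusted p = 0.344 and 0.263). Of 11 neuron markers tested, 8 were higher in CHT-EC, but 0 passed with CHT-EC replicate 1 left out (9 at an unadjusted p under 0.05). Omitting CHT-EC replicate 2 left 2, and omitting CHT-HSPC replicate 1 left 5. The 12 listed (gap43 at 0 throughout) summed to 339 and 425 CPM in CHT-EC, against 77.0 and 86.6 CPM in CHT-HSPC. Their part in the Rab3 values was not tested.

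**Figure D2:**
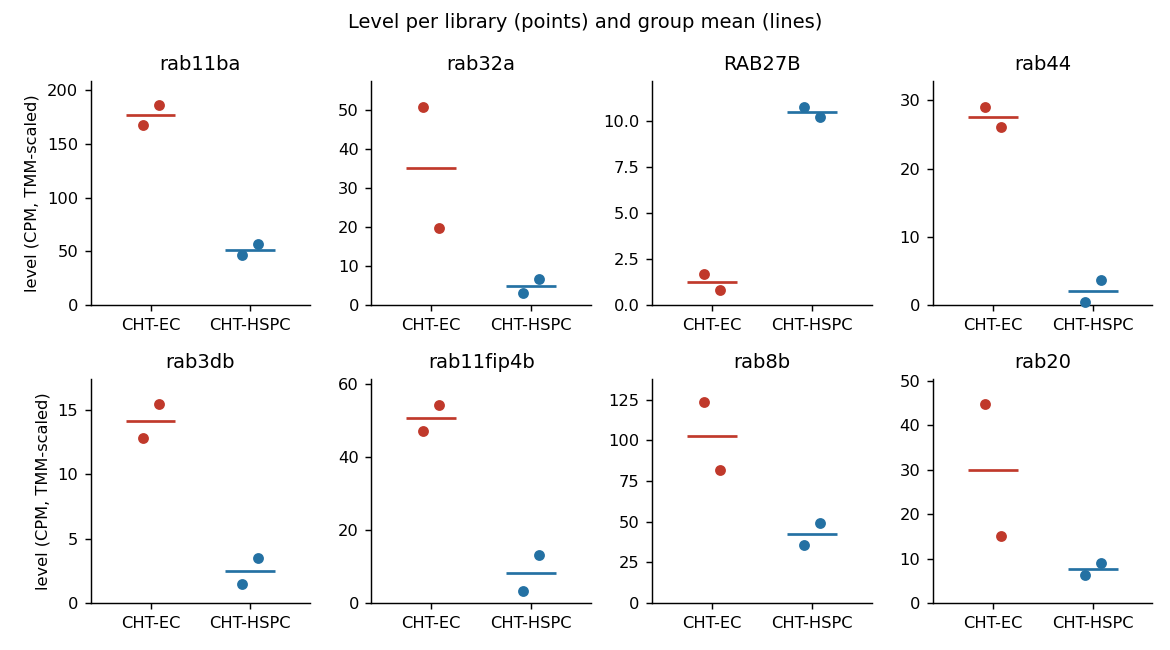
Level in CPM (y axis, from 0) of 8 members in each library (points) with group means (lines), CHT-EC left and CHT-HSPC right. rab11ba, rab32a and RAB27B passed the test. The 8 were picked among members with large differences in these same data, which favours the lack of overlap seen in all 8 panels. Both CHT-EC libraries were above both CHT-HSPC libraries in 55.1% of tested members and 30.6% of all genes. The reverse held in 8.97% and 27.9%. CHT-EC replicate 1 (left red point) is far above replicate 2 for rab32a and rab20.

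Early endosome Rabs receive what the cell takes up by endocytosis. None of the 7 tested passed in edgeR, DESeq2 or limma-voom, while 4 had an unadjusted p under 0.05 on the CHT-EC side in each (14.6% of all genes in edgeR), and in 6 of 7 both CHT-EC libraries were above both CHT-HSPC libraries (30.6% of all genes). In edgeR the 4 became 2 with the replicate block or with totals alone, and also fell when any single library was left out. The shares over all genes in these settings are not given here, so the fall is not a result about these Rabs. The summed level was 579 and 545 CPM in CHT-EC, against 372 and 381 CPM in CHT-HSPC. The member with the most counts, rab5c (ENSDARG00000026712), was at 201 and 223 CPM in CHT-EC, against 138 and 109 CPM in CHT-HSPC (log2 ratio 0.77, SE 0.26, adjusted p = 0.135). The copies of Rab5a, rab5aa and rab5ab, had log2 ratios of 0.27 and 0.72 (adjusted p = 0.577 and 0.178). For rab5b the level was 27.7 and 25.1 CPM in CHT-EC, against 10.6 and 17.0 CPM in CHT-HSPC (log2 ratio 0.94, SE 0.39, adjusted p = 0.200). RAB31, which moves cargo between the trans-Golgi and endosomes, was at 15.2 and 16.8 CPM in CHT-EC, against 5.02 and 9.57 CPM in CHT-HSPC (log2 ratio 1.13, SE 0.48, adjusted p = 0.207). RAB21, known for integrin uptake, had a log2 ratio of 0.45, and the groups of rab22a, a Rab of endosomal recycling, were the only ones of the 7 to overlap (-0.05).

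Late endosome, lysosome, phagosome and autophagy Rabs lay on the CHT-EC side for 9 of 11 tested (81.8%, against 50.8% of all genes). Their median log2 ratio was 0.92. None passed in edgeR or limma-voom. An unadjusted p under 0.05 on the CHT-EC side was found for 2 in edgeR (18.2%, background 14.6%) and 1 in limma-voom. DESeq2 placed 1 higher in CHT-EC, against a background of 10.9%. That gene, rab20 (ENSDARG00000005049), encodes a Rab of phagosome maturation in macrophages. Its level was 44.9 and 15.1 CPM in CHT-EC, against 6.23 and 8.90 CPM in CHT-HSPC. The log2 ratio was 1.98 (SE 0.57, adjusted p = 0.101 in edgeR and 0.00909 in DESeq2). In edgeR without the low-count filter rab20 did pass (adjusted p = 0.000402). Without CHT-EC replicate 1 its log2 ratio was 0.998 (adjusted p = 0.506). The autophagy-related rab24 showed the same split of the CHT-EC libraries, at 38.1 and 12.9 CPM in CHT-EC, against 13.4 and 10.5 CPM in CHT-HSPC. The summed macrophage, notochord, endothelial, epidermal, pigment, neutrophil and thrombocyte markers were also higher in CHT-EC replicate 1 than in replicate 2, while the erythroid, neuron, stem and muscle sums were lower, and their part in these values was not tested. The central late endosome Rab, rab7 (ENSDARG00000020497), was at 196 and 154 CPM in CHT-EC, against 147 and 128 CPM in CHT-HSPC (log2 ratio 0.35, SE 0.26, adjusted p = 0.465). Both copies of Rab39b, a neuronal Rab linked to autophagy, lay on the CHT-EC side without overlap. The copy rab39ba was at 2.36 and 1.77 CPM in CHT-EC, against 0.539 and 0.260 CPM in CHT-HSPC (adjusted p = 0.255). The copy rab39bb was at 2.85 and 6.73 CPM in CHT-EC, against 2.39 and 0.983 CPM in CHT-HSPC (adjusted p = 0.312). The Rab9 genes of transport from endosomes to the Golgi, rab9a and rab9b, had log2 ratios of -0.02 and 0.92 (adjusted p = 0.988 and 0.519).

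Rabs of the endoplasmic reticulum and Golgi, the front of the secretory route, split between the sides, 9 and 7 of 16 tested. None passed in edgeR, DESeq2 or limma-voom. In edgeR 4 had an unadjusted p under 0.05 on the CHT-EC side (25%, background 14.6%). On the CHT-HSPC side 1 did (6.25%, background 9.23%), the row listed as rab43, whose identity is uncertain as given below. The genes with the most counts shared a modest lean. The level of rab2a (ENSDARG00000020261) was 228 and 185 CPM in CHT-EC, against 137 and 129 CPM in CHT-HSPC (log2 ratio 0.64, SE 0.25, adjusted p = 0.186). Of the Rab1 copies of vesicle transport to the Golgi, rab1ba and rab1ab had the most counts and were alike. The copy rab1ba (ENSDARG00000058044) was at 215 and 152 CPM in CHT-EC, against 115 and 101 CPM in CHT-HSPC (adjusted p = 0.160). The row listed as rab1ab (ENSDARG00000029663), which a second name table calls RAB1B, was at 185 and 165 CPM in CHT-EC, against 117 and 114 CPM in CHT-HSPC (adjusted p = 0.191). Groups overlapped for rab1aa, at 36.4 and 27.9 CPM in CHT-EC, against 15.2 and 28.0 CPM in CHT-HSPC (adjusted p = 0.428). The last copy, rab1bb, had few counts and a log2 ratio of 0.93 (adjusted p = 0.435).

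The largest fitted ratio among them, 3.88 for rab33a, a Rab of the Golgi and autophagosome, rests on 58 and 16 counts in CHT-EC, against 0 and 6 counts in CHT-HSPC (SE 1.90, adjusted p = 0.269). Some Golgi Rabs lay on the other side. The row listed as rab43 (ENSDARG00000063466), which a second name table calls ISY1, was at 25.2 and 33.0 CPM in CHT-EC, against 59.2 and 48.9 CPM in CHT-HSPC (log2 ratio -0.89, SE 0.31, adjusted p = 0.144). The groups did not overlap. A different row, RAB43 (ENSDARG00000059404), was at 31.7 and 18.3 CPM in CHT-EC, against 28.0 and 30.5 CPM in CHT-HSPC (adjusted p = 0.763). The level of rab41 (ENSDARG00000029885), a Rab6 relative, was 31.5 and 30.6 CPM in CHT-EC, against 44.2 and 38.8 CPM in CHT-HSPC, without overlap (adjusted p = 0.427). That of rab6a (ENSDARG00000103714), the general Golgi Rab6, was 41.4 and 27.2 CPM in CHT-EC, against 32.9 and 45.3 CPM in CHT-HSPC (adjusted p = 0.793).

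The Rabs of exocytosis and junctions differed among themselves. The level of rab8b (ENSDARG00000068628), which carries vesicles to the plasma membrane, was 123 and 82.0 CPM in CHT-EC, against 35.5 and 49.1 CPM in CHT-HSPC (log2 ratio 1.28, SE 0.33, adjusted p = 0.0774). Its relative rab8a was at 35.6 and 29.1 CPM in CHT-EC, against 33.6 and 37.5 CPM in CHT-HSPC (adjusted p = 0.832). The tight junction Rab rab13 (ENSDARG00000034771) was at 12.2 and 6.76 CPM in CHT-EC, against 2.09 and 3.30 CPM in CHT-HSPC (log2 ratio 1.81, SE 0.60, adjusted p = 0.131). DESeq2 called rab8b (adjusted p = 0.0108) and rab13 (0.0347). With other filters edgeR called rab8b too. Its adjusted p was 0.00216 without the low-count filter and 0.0426 with at least 10 CPM in 2 or more libraries. In contrast, rab10 (ENSDARG00000046106), a Rab of exocytosis and membrane recycling, was at 166 and 165 CPM in CHT-EC, against 188 and 153 CPM in CHT-HSPC (log2 ratio -0.04, SE 0.25, adjusted p = 0.945).

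The 12 genes of Rab-interacting proteins were all tested and none passed in edgeR. There, 4 had an unadjusted p under 0.05 on the CHT-EC side (33.3%, background 14.6%). DESeq2 placed 3 higher in CHT-EC (background 10.9%) and limma-voom 1 (background 3.71%). The FIP genes encode effectors that link Rab11 to motors. The level of rab11fip4b (ENSDARG00000103207) was 47.2 and 54.4 CPM in CHT-EC, against 3.27 and 13.1 CPM in CHT-HSPC (log2 ratio 2.63, SE 0.63, adjusted p = 0.0674). It passed in 6 of 11 alternatives, with an adjusted p of 2.12e-08 to 0.215. Its other copy, rab11fip4a (ENSDARG00000090170), had 106 and 187 counts in CHT-EC, against 0 and 18 counts in CHT-HSPC (log2 ratio 4.27, SE 1.44, adjusted p = 0.139), so its ratio rests on few counts in CHT-HSPC. RAB11FIP2 was at 6.52 and 2.55 CPM in CHT-EC, against 0.607 and 1.88 CPM in CHT-HSPC (adjusted p = 0.265). The members called by DESeq2 were rab11fip4a (adjusted p = 0.00856), rab11fip4b (0.000383) and rab11fip1b (0.0498).

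The gene rab3il1, an exchange factor that acts on Rab8 as does rab3ip, was at 10.7 and 9.55 CPM in CHT-EC, against 3.98 and 3.93 CPM in CHT-HSPC (log2 ratio 1.36, SE 0.49, adjusted p = 0.156). Its relative rab3ip was at 17.3 and 15.4 CPM in CHT-EC, against 18.7 and 12.3 CPM in CHT-HSPC (log2 ratio 0.08), so its groups overlapped.

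On the CHT-HSPC side, rab3gap2 (ENSDARG00000044136), a subunit of the Rab3 GTPase-activating complex, was at 28.7 and 26.4 CPM in CHT-EC, against 38.8 and 50.1 CPM in CHT-HSPC (log2 ratio -0.69, SE 0.31, adjusted p = 0.229). The catalytic subunit gene rab3gap1 was at 30.2 and 34.4 CPM in CHT-EC, against 28.4 and 37.6 CPM in CHT-HSPC (log2 ratio -0.03). The effector rab11fip5a (ENSDARG00000104179) was at 1.84 and 13.1 CPM in CHT-EC, against 14.2 and 10.9 CPM in CHT-HSPC (adjusted p = 0.632), so CHT-EC replicate 1 alone was low, and without it the log2 ratio was 0.07.

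Many zebrafish Rabs come as a pair of copies from the genome duplication of teleost fish. Pairs were taken by symbol, and for 13 of 15 both copies were tested. The share of a pair's counts that falls to 1 copy does not depend on the scaling of the libraries, though it does depend on how reads shared by the copies were counted. The largest difference between the fold changes of copies was that of rab42a (ENSDARG00000034215) and rab42b (ENSDARG00000101170), 3.09 on the log2 scale. The copy rab42a took 58.7% and 77.4% of the pair in CHT-EC, against shares of 10.3% and 36.4% in CHT-HSPC. It had 64 and 123 counts in CHT-EC, against 10 and 28 counts in CHT-HSPC, while rab42b had 45 and 36 counts in CHT-EC, against 87 and 49 counts in CHT-HSPC.

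The effector rab11fip1a took 6.05% and 3.94% of its pair in CHT-EC, against shares of 11.8% and 10.9% in CHT-HSPC. The other copy, rab11fip1b (ENSDARG00000036462), was at 45.4 and 53.0 CPM in CHT-EC, against 26.9 and 23.6 CPM in CHT-HSPC (log2 ratio 0.96, SE 0.30, adjusted p = 0.117). The copy rab11fip4a took 7.77% and 10.5% in CHT-EC, against shares of 0% and 3.81% in CHT-HSPC. In these 3 pairs the shares of the groups did not overlap. The pairs named here were picked for the largest differences in these same data, which favours a lack of overlap. Among the pairs not picked, the shares of rab3da, rab5aa, rab18a and rab25a in their pairs did not overlap either. Those of rab39ba, rab11ba, rab3aa, rab1ba, rab1aa and rab32a overlapped or touched. The neuronal Golgi Rab rab6ba took 12.5% and 13.1% of its pair in CHT-EC, against shares of 70.5% and 21.9% in CHT-HSPC, also without overlap. The other copy, rab6bb, had 210 and 166 counts in CHT-EC, against 18 and 82 counts in CHT-HSPC (log2 ratio 2.17, adjusted p = 0.167).

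The ciliary pair rab34a and rab34b showed no order by group, since rab34a took 77.9% and 5.88% in CHT-EC, against shares of 11.7% and 58.1% in CHT-HSPC. An exact permutation test (two-sided) of the log2 ratio of the copies gave p = 0.333 for 4 of these 5 pairs and p = 1 for rab34, and 0.333 is the smallest p that 2 libraries against 2 allow. This test could therefore not pass for any pair, and no model of the difference between copies was fitted.

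**Figure D3:**
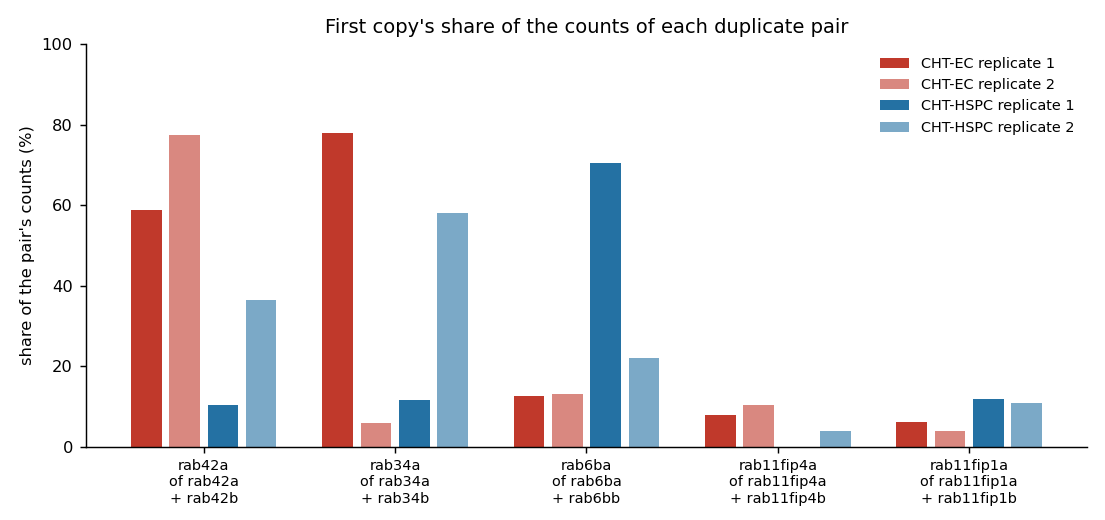
Share of each duplicate pair's counts that fell to the first copy (y axis, percent) in each library (bars), for the 5 pairs whose fold changes differed most. For rab42a the CHT-EC shares of 58.7% and 77.4% are above the CHT-HSPC shares of 10.3% and 36.4%, while for rab34a the libraries of each group disagree.

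The remaining members were weakly detected or flat. RAB28 and RAB37 had no count in any library, which allows at most 0.0867 to 0.112 CPM per library (3 counts, counting error only). A further 7 members had a count but did not pass the filter: RAB19, RAB26, RAB38, rab25a, rab32b, rab36 and rab3b, in which no library but CHT-EC replicate 1, with 59 counts of rab36, had more than 21 counts. For rab36 there were 59 and 0 counts in CHT-EC, against 0 and 4 counts in CHT-HSPC. The Rab40 genes rab40b and rab40c, which join a Rab fold to a ubiquitin ligase box, had log2 ratios of -0.06 and 0.16. The hedgehog pathway regulator rab23 was at 7.05 and 3.70 CPM in CHT-EC, against 6.03 and 5.52 CPM in CHT-HSPC.

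Among genes that load or unload Rabs, the edgeR calls over all 4 libraries, with the filter used throughout, were all of exchange factors. The calls are too few to compare the lists. Of 36 tested, 3 passed toward CHT-EC (background 3.78%) and 1 toward CHT-HSPC (background 0.752%), with a median log2 ratio of 0.29. The DENN-domain protein gene dennd4a (ENSDARG00000062721), whose mammalian product acts on Rab10, was at 144 and 201 CPM in CHT-EC, against 16.5 and 16.8 CPM in CHT-HSPC (log2 ratio 3.37, SE 0.31, adjusted p = 0.00763), and it passed in all 11 alternatives. The level of dennd2da (ENSDARG00000058666), another DENN-domain gene, was 19.0 and 17.4 CPM in CHT-EC, against 1.18 and 1.36 CPM in CHT-HSPC (log2 ratio 3.84, SE 0.49, adjusted p = 0.0129). Its call ended without CHT-EC replicate 1 (adjusted p = 0.0794).

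The gene madd (ENSDARG00000003495) encodes an exchange factor for Rab3 and Rab27, and was at 114 and 109 CPM in CHT-EC, against 35.1 and 45.4 CPM in CHT-HSPC (log2 ratio 1.47, SE 0.28, adjusted p = 0.0365). In the other direction, dennd4c (ENSDARG00000102766), a relative of dennd4a, was at 74.8 and 90.6 CPM in CHT-EC, against 177 and 223 CPM in CHT-HSPC (log2 ratio -1.28, SE 0.27, adjusted p = 0.0488). The relatives dennd4a and dennd4c thus passed in opposite directions. Leaving out 1 library ended the call of madd in 3 of 4 cases: CHT-EC replicate 1 (adjusted p = 0.169), CHT-EC replicate 2 (0.0887) and CHT-HSPC replicate 1 (0.102). That of dennd4c ended with any library left out (0.0536 to 0.245).

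The other parts of the cycle gave no call in edgeR over all 4 libraries with the filter used throughout. None of 40 GTPase-activating protein genes (median log2 ratio 0.04), 61 effector and tether genes (-0.21) or 8 genes of GDI, escort and prenylation (-0.21) passed. At an unadjusted p under 0.05 there were 2, 5 and 1 on the CHT-EC side, in that order, against a background of 14.6%. On the CHT-HSPC side there were 3, 3 and 0, against 9.23%. By DESeq2, 2, 2 and 1 passed toward CHT-EC (background 10.9%) and 0, 1 and 0 toward CHT-HSPC (background 3.91%). By limma-voom none did. Without the low-count filter, edgeR called 1 of 41 GTPase-activating protein genes in each direction. Of 63 effector and tether genes it then called 3 toward CHT-EC and 1 toward CHT-HSPC. The share over all genes in that setting is not given here.

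**Figure D4:**
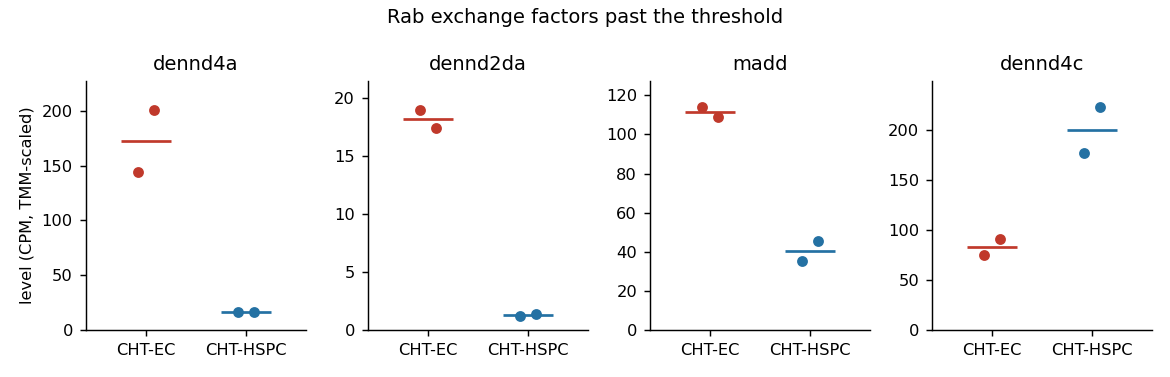
Level in CPM (y axis, from 0) of the 4 exchange factor genes past the threshold, in each library (points) with group means (lines), CHT-EC left and CHT-HSPC right. The first 3 are higher in CHT-EC, and dennd4c is higher in CHT-HSPC, at 177 and 223 CPM.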

How the data were processed

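RNA of sorted cells was sequenced in 4 libraries, 2 of each gate. The authors deposited 1 table of whole-number counts per Ensembl gene, not normalised. Per the submitters' processing notes, TopHat2, HTSeq 0.6.1 and GRCz10 were used. The sources used here give no strand setting and no rule for reads shared by near-identical copies, so the split of counts between duplicate genes is uncertain. The labels' protocols name DEGseq, in place of which a test with a term for the spread between replicates was used.

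All 19016 genes kept by filterByExpr (minimum count 10, minimum total 15) were fitted with edgeR 4.0.16 in R 4.3.3, using TMM factors, the quasi-likelihood F-test without a block and Benjamini-Hochberg adjustment. The fit was tested on simulated data, drawn at the fitted trend of spread without scatter of single genes around it. That test does not show how many true differences go uncalled here. The SE is the size of the log2 ratio over the square root of F. DESeq2 1.42.0, limma 3.58.1 (voom), other scalings and filters, a replicate block and leaving out each library were alternatives. Named members were those past 0.05, the 10 largest ratios each way with at least 5 CPM in the higher group, the 8 with the most counts, and the 5 duplicate pairs whose ratios differed most. Pathway genes were named where past 0.05, and any other gene was named after its values were seen. The members and lists were chosen with earlier results of these data known. Roles are those known from mammalian cells, 1 per Rab number. A gene name table held 79 of the 87 identifiers. It gives ISY1 for the one listed as rab43, RAB1B for the one listed as rab1ab and a clone name for RAB7B. Gene lengths were not used here, so levels are not compared between genes.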

Additional observations from a re-analysis of the deposited data

How the results depend on the processing

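Of the 2 counts of called members, the first is that higher in CHT-EC. It was 2 of 78 with upper-quartile factors, 1 of 78 with totals alone and 8 of 85 without the low-count filter. With at least 10 CPM in 2 or more libraries it was 6 of 43, with DESeq2 10 of 80 and with limma-voom 4 of 78. The count higher in CHT-HSPC was 0 with totals alone and with limma-voom and 1 under the other 4. Calls over all genes moved as well. Toward CHT-EC there were 718 in the main fit, 769 with upper-quartile factors, 2079 with DESeq2 and 705 with limma-voom. For the other settings no share over all genes is given here, so a change in count is not a result about the family. Leaving out 1 library gave 0 to 6 members higher in CHT-EC and none higher in CHT-HSPC. With the replicate block there were 4 and 1. The numbers do not pair the libraries by any label, and deviations of same-numbered libraries had a correlation of -0.00936 over 19016 genes. The block ended the calls of rab32a (adjusted p = 0.0565), madd (0.0531) and dennd4c (0.0675) and added rab44 (0.0287), rab3db (0.0445) and rab11fip4b (0.0239). Totals alone ended the calls of RAB27B (0.0520), rab32a (0.0708), madd (0.0567) and dennd4c (0.0579), limma-voom those of RAB27B (0.0505) and rab32a (0.0525), and upper-quartile factors narrowly that of dennd4c.

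Over all 11 alternatives the median of the tested members stayed between 0.40 and 0.71, and that of all genes between -0.05 and 0.18. Without CHT-HSPC replicate 2 the median of members was 0.71 beside 0.18 for all genes. The member median was 0.48 with at least 10 CPM, where that of all genes was -0.02. Changes of sign were followed only for the members named by the rule above and the called exchange factors. The 16 log2 ratios among these that changed sign were all of uncalled members. With at least 10 CPM, rab10 was at 0.0893. With limma-voom rab34a was at -0.61 and rab6ba at 0.0314, and with the block rab34a was at -0.31. Leaving out 1 library gave ranges across 0 for rab10 (-0.149 to 0.116), rab34a (-3.62 to 2.29), rab34b (-2.33 to 0.647), rab6ba (-0.516 to 0.568), rab42b (-0.973 to 0.0398), rab11fip5a (-2.75 to 0.0668), RAB35 (-0.589 to 0.0152), RAB43 (-0.676 to 0.131), rab6a (-0.525 to 0.0972) and rab14 (-0.381 to 0.0295). The cause was not tested. The spread between libraries, a biological coefficient of variation of 0.540, limits what 2 libraries per group can show.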
